A study of Mus musculus with 21 samples.

Results

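The nuclear lamina is the protein meshwork under the inner nuclear membrane, LaminB1 is one of its main proteins, and chromatin that lies against it can be recovered by LaminB1 chromatin immunoprecipitation. Such lamina-associated chromatin is mostly gene-poor and silent, and much of it carries dimethylation of lysine 9 of histone H3 (H3K9me2), a mark written by the Ehmt1 and Ehmt2 methyltransferases. Prdm16 is a zinc finger transcription regulator with a PR domain, known from brown fat and stem cells. The regions described here are the minority of LaminB1 chromatin called in control cells alone that carried no H3K9me2 domain in any library.

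The cells were fibro-adipogenic progenitors (FAPs), the Pdgfra-positive mesenchymal cells of skeletal muscle that can become fat or fibrous tissue. Both genotypes were homozygous for a floxed Prdm16 allele (Prdm16Flox/Flox). The Prdm16 group also carried PdgfrαCre-ERT/+, a tamoxifen-inducible Cre expressed from the Pdgfra locus, and the group called WT was Pdgfrα+/+ and had no Cre. Per the labels, tamoxifen was given for 5 days, cardiotoxin injury followed 7 days later, and FAPs isolated 5 days after injury were cultured for 4 to 5 days, so every library came from cultured cells. LaminB1 (spelled LamininB1 in the sample titles) was profiled in 1 library of each genotype and H3K9me2 in 3 of each, and RNA-seq covered 3 WT libraries and 2 of Prdm16. The labels do not say that replicates came from separate animals, so each p-value measures only how these samples vary, which may be technical variation.

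The regions were the autosomal bins of 1 kb that lay in a LaminB1 domain of the WT library, in no LaminB1 domain of the Prdm16 library and in no H3K9me2 domain of the 6 H3K9me2 libraries, with touching bins merged. There were 395 of them. Cutting all autosomal LaminB1 of either genotype in the same way, by genotype and by H3K9me2, gave 3014 regions. The LaminB1 and H3K9me2 domain lists chose these regions, so their number, length, score and coverage are descriptions without a test. With 1 LaminB1 library per genotype, the absence of LaminB1 from the Prdm16 library has no replicate check. How deeply the domain libraries were sequenced is unknown.

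Sequences from the ends of the expression range are shown first, to set promoters of expressed region genes beside silent ones. Smim10l1 and Chordc1 took the most counts, with no correction for transcript length, among region genes whose start lay in a region. Of the other such genes with a promoter in the table, Zfp976 and Cd53 had the smallest unadjusted p-values for a genotype difference. Olfr154 and Olfr1124, the first and the last olfactory receptor of the longest region, had no RNA count and were chosen for their position, outside the rule for named genes. Each sequence is the 250 bases before the start used in the RefSeq promoter table for GRCm38.p6, read in the direction of transcription. For Smim10l1 and Zfp976 that start lies inside the annotated gene span, so their sequences are not the bases before the outermost start. The motifs searched, on both strands, were the TATAAA box, seen on the other strand as TTTATA, the CCAAT box, seen as ATTGG, and the GC box GGGCGG, seen as CCGCCC. Capitals mark each match, and no matches overlap.
Smim10l1, chr6:133104989-133105238, + strand: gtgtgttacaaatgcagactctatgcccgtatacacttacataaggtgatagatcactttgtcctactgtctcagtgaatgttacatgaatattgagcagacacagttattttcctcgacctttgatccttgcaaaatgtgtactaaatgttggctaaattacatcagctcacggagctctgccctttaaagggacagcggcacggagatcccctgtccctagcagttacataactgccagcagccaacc
Chordc1, chr9:18292017-18292266, + strand: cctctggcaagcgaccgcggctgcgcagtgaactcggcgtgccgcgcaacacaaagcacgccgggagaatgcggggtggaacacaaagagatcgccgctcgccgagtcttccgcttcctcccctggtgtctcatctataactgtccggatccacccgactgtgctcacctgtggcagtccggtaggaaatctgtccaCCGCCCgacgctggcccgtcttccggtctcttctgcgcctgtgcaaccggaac
Zfp976, chr7:42642605-42642854, - strand: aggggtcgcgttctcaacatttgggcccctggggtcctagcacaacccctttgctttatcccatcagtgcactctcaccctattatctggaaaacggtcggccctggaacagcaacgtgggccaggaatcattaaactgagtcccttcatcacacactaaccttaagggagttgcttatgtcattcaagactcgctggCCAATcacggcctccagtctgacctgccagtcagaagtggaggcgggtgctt
Cd53, chr3:106790150-106790399, - strand: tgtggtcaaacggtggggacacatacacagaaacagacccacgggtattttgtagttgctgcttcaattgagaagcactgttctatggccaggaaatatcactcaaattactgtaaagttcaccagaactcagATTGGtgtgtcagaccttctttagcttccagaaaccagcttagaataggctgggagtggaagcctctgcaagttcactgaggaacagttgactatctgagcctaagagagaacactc
Olfr154, chr2:85664456-85664705, - strand: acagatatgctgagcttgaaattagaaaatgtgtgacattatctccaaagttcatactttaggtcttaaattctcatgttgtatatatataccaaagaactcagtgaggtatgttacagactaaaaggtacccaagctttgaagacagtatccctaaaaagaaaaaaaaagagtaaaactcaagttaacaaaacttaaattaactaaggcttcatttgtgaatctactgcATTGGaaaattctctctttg
Olfr1124, chr2:87434239-87434488, + strand: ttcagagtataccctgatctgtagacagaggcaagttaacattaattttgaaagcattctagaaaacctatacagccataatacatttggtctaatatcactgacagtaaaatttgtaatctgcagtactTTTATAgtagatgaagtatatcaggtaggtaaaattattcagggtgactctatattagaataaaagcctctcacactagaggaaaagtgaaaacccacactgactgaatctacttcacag

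The Chordc1 sequence was 63.6% G and C with 26 CpG dinucleotides, and the Zfp976 sequence was 53.6% with 8. Smim10l1 had 44.4% and 5 CpG, and Cd53 45.2% and 2. The olfactory receptor sequences were the most A- and T-rich of the 6, at 31.2% G and C for Olfr154 and 34.0% for Olfr1124, and neither held a CpG. Over the same 250 bases in 27025 promoters of the table, TATAAA occurred in 13.0%, CCAAT in 34.5% and GGGCGG in 32.9%. A match is a run of letters and is not evidence of a bound factor.

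The 395 regions covered 53.55 Mb, or 2.18% of the autosomes. They ranged from 1 to 1789 kb, with a median of 55 kb and quartiles of 12 and 156 kb. Most of the length lay in a minority of them: the 145 regions of 100 kb or more held 86.0% of it and the 40 longest held 49.3%. At the other end, 88 regions under 12 kb held 0.42 Mb in all. The regions lay on 18 of the 19 autosomes, with the highest shares on chromosome 7 (4.39% of its length), chromosome 2 (4.33%) and chromosome 1 (3.3%). Chromosome 11 had 0.191% and chromosome 19 had none.

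LaminB1 domains covered 646.5 Mb in the WT library and 305.2 Mb in the Prdm16 library. Of all autosomal bins, 14.1% were covered in WT and not in Prdm16 and 0.249% the reverse, and the regions are the H3K9me2-free part of the former. H3K9me2 was absent from 15.4% of the 347.4 Mb of WT-only LaminB1, from 39.3% of the 299.1 Mb covered in both genotypes, and from 67.1% of the autosomes outside LaminB1. Read the other way, 31.3% of the H3K9me2-free WT LaminB1 was not covered in the Prdm16 library, against 61.8% of the WT LaminB1 that had H3K9me2. H3K9me2-free LaminB1 called in the Prdm16 library alone came to 1.221 Mb in 61 regions. Each share compares 1 LaminB1 library with 1 other.

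**Figure D1:**
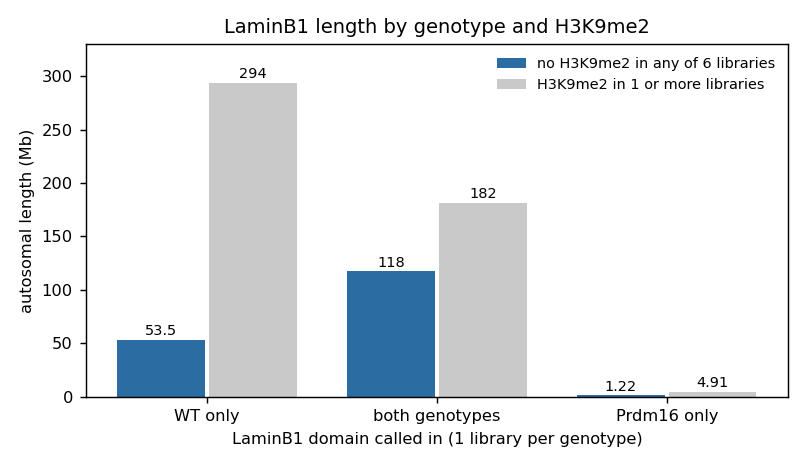
Autosomal length in Mb (vertical axis, from 0) covered by LaminB1 in WT only, in both genotypes or in Prdm16 only (1 library per genotype), split by whether any of the 6 H3K9me2 libraries had a domain there. The regions described here are the blue bar at the left (53.5 Mb); the grey bar beside it, WT-only LaminB1 with H3K9me2, is 294 Mb.

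What lay beside the regions divided them into 3 kinds. At 1 or both ends, 267 regions touched LaminB1 that both genotypes shared. These held 44.5 Mb, or 83.2% of the length, so most of the regions are parts of longer WT domains of which another stretch was also called in the Prdm16 library. Another 104 regions touched H3K9me2 and no shared LaminB1. They were short, with a median of 8.5 kb and 5.29 Mb in all. The last 24 regions were whole WT LaminB1 domains, 72 to 404 kb long and 3.72 Mb in all, that ended on both sides in chromatin with neither mark.

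The authors' score of the WT domain differed among these kinds. The sources used here do not say what the score measures, and it is used only to rank domains within the WT list. Counted once per region, its median was 128 for regions touching shared LaminB1 and 35.4 for those touching H3K9me2 alone. It was 12.4 for the 24 whole domains, whose scores ran from 9.88 to 23.9. A domain that holds several regions counts several times in such medians. Counted once per domain, the 197 WT domains with both a region and Prdm16 LaminB1 had a median of 88.3. Over all 985 autosomal WT domains the median was 30.7 and the lowest score 9.39. The lowest score of a domain holding a region was 9.68 and the highest 533. The 24 whole domains thus all lay below the median score of the WT list, close to the limit of what was called. They were also short, with a median of 138 kb against 348 kb over all WT domains. Longer domains tended to score higher: WT domains with Prdm16 LaminB1 in part had medians of 60.4 for score and 628 kb for length. A low score is therefore not separated here from a short length. Values for chromatin just outside a domain are not analysed here, since the lists hold called domains only.

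**Figure D2:**
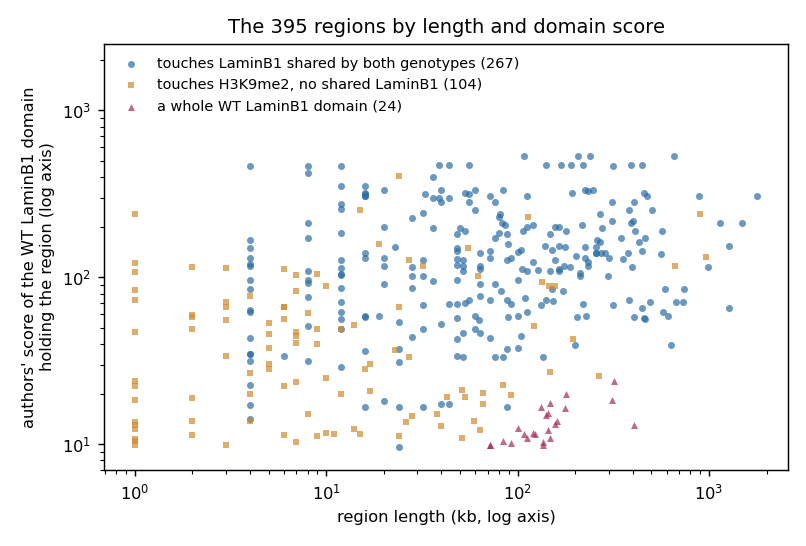
Each of the 395 regions by its length in kb (horizontal, log axis) and the authors' score of the WT LaminB1 domain that holds it (vertical, log axis), coloured by what it touches. The 24 whole WT domains sit at the bottom right, between scores of 9.88 and 23.9, while regions touching shared LaminB1 reach a score of 533.

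The longest region was chr2:85659001-87448000, 1789 kb within a WT domain of 4916 kb with a score of 305.1. It held 88 protein-coding olfactory receptor genes and no other protein-coding gene. The same domain held a second region of 888 kb, chr2:87620001-88508000, with 42 olfactory receptors, and a further one of 476 kb, chr2:88960001-89436000, with 22. Where these 3 stretches faced each other, each ended in LaminB1 that both genotypes shared. On chromosome 7, chr7:86084001-87068000 (984 kb) held 15 olfactory receptors, 5 vomeronasal receptors (Vmn2r75 to Vmn2r79) and Folh1, a glutamate carboxypeptidase. On chromosome 9, chr9:38764001-39224000 held 17 olfactory receptors and lay 28 kb from the nearest H3K9me2 domain.

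Others among the longest regions held few genes. No protein-coding gene lay in chr3:111204001-112684000 (1480 kb), chr2:98708001-99975000 (1267 kb), chr15:45916001-47064000 (1148 kb), chr10:113036001-113997000 (961 kb) or chr6:104856001-105759000 (903 kb). The region chr12:66096001-67376000 (1280 kb) held Mdga2, an immunoglobulin-family adhesion protein of neurons, and Rpl10l, a testis-expressed ribosomal protein gene. The longest regions touching no shared LaminB1 were those on chromosomes 10 and 6, then chr4:79083001-79746000 (663 kb), chr1:141756001-142160000 (404 kb) and the alpha protocadherin region on chromosome 18 (320 kb). Only the last of these 5 held protein-coding genes.

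In all, 1067 annotated genes had a share of at least 0.5 of their body in a region. They comprised 508 protein-coding genes, 394 pseudogenes, 86 long noncoding RNAs and smaller classes. Of the regions, 173 held no gene and 285 no protein-coding gene. The density of protein-coding genes was 9.49 per Mb, against 8.4 over the autosomes. Olfactory receptors carried much of it, since without them the density in the regions was 3.98 per Mb. In LaminB1 shared by both genotypes without H3K9me2 it was 9.62 per Mb, and 6.73 without olfactory receptors. In WT-only LaminB1 with H3K9me2 it was 2.42 per Mb, and 2.02 without them.

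Olfactory receptors are the G protein-coupled receptors of the nasal epithelium and form the largest mouse gene family, in clusters of tandem copies. They made up 295 of the 508 protein-coding region genes, or 58.1%, against 5.34% of autosomal protein-coding genes. In LaminB1 shared by both genotypes without H3K9me2 the figure was 30.1%. These 295 were 26.7% of the 1104 autosomal olfactory receptors and lay in 28 regions of 7.73 Mb, 152 of them in 3 regions. A further 92 olfactory receptor pseudogenes lay there too. Tandem copies share their position, so these counts stand for a few clusters. No test was made of them. Other olfactory receptors lay in LaminB1 shared by both genotypes without H3K9me2 (30.9%), in WT-only LaminB1 with H3K9me2 (10.6%) and in other classes.

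Vomeronasal receptors, the pheromone receptors of the vomeronasal organ, had another placement. The regions held 22 of 354 (6.21%), and LaminB1 shared by both genotypes without H3K9me2 held 61.3%. Of the olfactory receptors in H3K9me2-free WT LaminB1, 46.4% were in the WT-only part. The figure was 9.21% for vomeronasal receptors, 29.2% for the 24 bitter taste receptors there and 31.0% for all protein-coding genes. Both families are tandem clusters, and this contrast rests on 1 LaminB1 library per genotype.

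Further clusters were chosen after their genes had been seen. By the body share, the regions held Pcdha1 to Pcdha12 and Pcdhac1 of the alpha protocadherin cluster (not Pcdhac2) and 15 of 22 beta protocadherins, the clustered cadherins by which neurons tell their own branches from others. The other 7 beta protocadherins lay in LaminB1 shared by both genotypes without H3K9me2. The regions also held 12 of 56 keratin-associated protein genes, which encode hair shaft matrix, 10 of 45 Prame-like genes, 5 of 7 beta globin genes, 5 of 11 Skint genes of skin T cell selection, 5 of 22 UDP-glucuronosyltransferase genes and 3 of 22 major urinary protein genes. In LaminB1 shared by both genotypes without H3K9me2 lay 29 of the Prame-like genes and 15 of the major urinary protein genes. That class also held 7 keratin-associated, 3 UDP-glucuronosyltransferase, 1 Skint and 0 beta globin genes. Of natural killer receptor genes with a Klr symbol, 3 of 29 (10.3%) lay in the regions and 14 (48.3%) in that shared class. Over all protein-coding genes these shares were 2.46% and 5.48%. Of 391 zinc finger genes with a Zfp symbol 9 lay in the regions (2.3%), of 376 solute carriers 3 (0.798%), and of 39 Hox genes none, since all 39 lay outside both LaminB1 and H3K9me2.

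**Figure D3:**
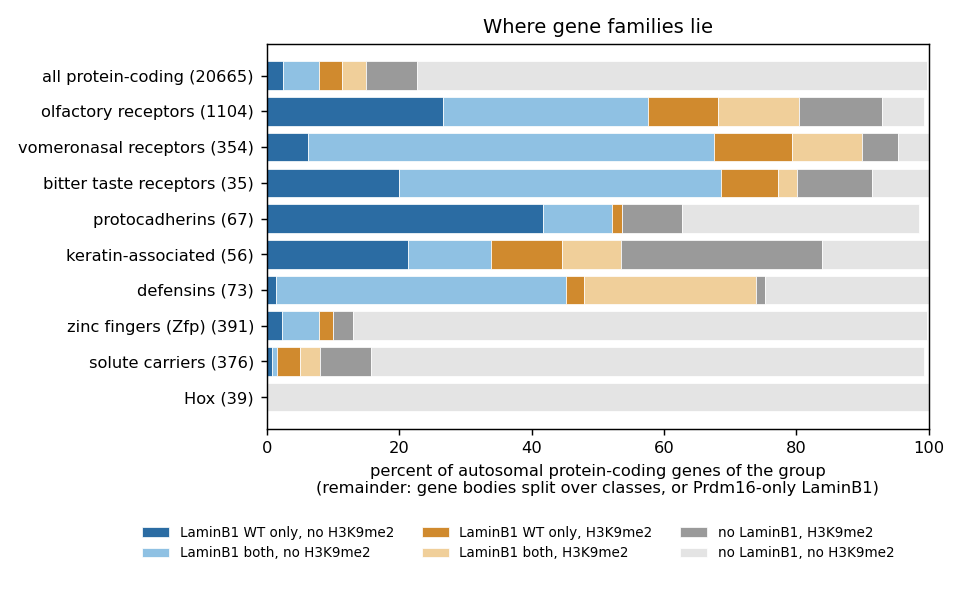
Percent of the autosomal protein-coding genes of each family (number in brackets) that lie in each LaminB1 and H3K9me2 class, with a gene placed where at least 0.5 of its body lies. Dark blue is the set of regions described here, 26.7% of olfactory receptors against 6.21% of vomeronasal receptors and 2.46% of all protein-coding genes.

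Among the 184 located genes of the lists of nuclear lamina, H3K9 methylation, FAP identity, adipogenic, brown fat, matrix and other-lineage genes, Pax7 alone lay in a region (0.543%, against 2.46% of all autosomal protein-coding genes and 1.09% of those that are not olfactory receptors). With so few genes expected, the lists are not set apart from other genes by this count. Pax7 is the transcription factor that marks muscle satellite cells. It was 1 of 13 genes in the myoblast list. The region was chr4:139692001-139828000, a whole WT domain of 136 kb that covered a share of 0.943 of the gene, with a score of 9.879. The gene runs on to chr4:139833530, past the end of this domain. The nearest H3K9me2 domain lay 53 kb away and the nearest LaminB1 of the Prdm16 library 236 kb away. Its score was near the lowest in the WT list (9.39).

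Of the 37 protein-coding genes in the 24 whole WT domains 4 were olfactory receptors (10.8%, against 5.34% of autosomal protein-coding genes). Of these domains, 9 held no protein-coding gene, and in 20 the nearest H3K9me2 domain lay at least 100 kb away. The domain chr2:180280001-180440000 (160 kb, score 13.78) held Gata5, a transcription factor of heart and endoderm, and the microRNA genes Mir1a-1 and Mir133a-2, which are transcribed in muscle. The 5′ mature strand of Mir1a-1 is shown from RefSeq for GRCm38.p6, at chr2:180389057-180389079, with its seed (bases 2 to 8) in capitals.
mmu-miR-1a-1-5p: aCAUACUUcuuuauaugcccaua
The domain of 320 kb over the alpha protocadherin cluster had the highest score of the 24 (23.9), and its nearest H3K9me2 domain lay 3120 kb away. The cluster runs on past the end of this domain, and the share of a gene's span inside it ran from 0.511 for Pcdhac1 to 0.815 for Pcdha1 among the 12 of its alpha genes in the count table. Other whole domains held Skint genes, Lrif1, Glycam1 and Adgre4.

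A whole WT domain also adjoined the targeted gene. It was chr4:154648001-154824000 (176 kb, score 16.42), holding the actin-related gene Actrt2, and it began 10.6 kb beyond the start of Prdm16, which runs on the minus strand at chr4:154316122-154637360. This domain was picked out after its position was seen. The Prdm16 gene body itself had no LaminB1 domain in either library and no H3K9me2 domain in any of the 6. The nearest LaminB1 of the Prdm16 library to this domain was 692 kb away, and Actrt2 had no RNA count in any library.

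Promoters in the regions were A- and T-rich. Over 300 bases (250 before to 50 after the start) the median G and C content was 35.7% for the 407 region genes with a promoter in the table, against 56.7% for 16457 autosomal protein-coding promoters. For the 248 olfactory receptor promoters of the regions it was 33.0%, and for 690 olfactory receptor promoters elsewhere 36.7%. The other 159 promoters of the regions had a median of 43.3%, against 40.3% for the promoters of shared H3K9me2-free LaminB1 that are not of olfactory receptors. TATAAA occurred in 42.5% of the region promoters and 13.5% of autosomal ones, and GGGCGG in 4.18% and 47.3%. Over all promoters of shared H3K9me2-free LaminB1 the shares were much the same as in the regions, 41.4% for TATAAA and 4.87% for GGGCGG. Without olfactory receptors they differed. TATAAA then occurred in 25.8% of the region promoters and 40.8% of the shared ones, and GGGCGG in 10.7% and 6.65%. The 16 non-olfactory promoters of the 24 whole domains had a median G and C content of 49.0%. Promoters of one family share sequence, so these are descriptions without a test.

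H3K9me2 around the regions is described without a test, because the same 6 domain lists chose the regions and 152 regions end at an H3K9me2 domain. In the 38.75 Mb within 50 kb of the regions, H3K9me2 domains covered 15.4%, 6.77% and 9.38% in WT replicates 1, 2 and 3, and 8.48%, 5.53% and 3.4% in Prdm16 replicates 1, 2 and 3. WT replicate 1 was the highest and Prdm16 replicate 3 the lowest, but Prdm16 replicate 1 exceeded WT replicate 2, so the genotypes overlapped. The means were 10.5% ± 4.42 (SD, n = 3) in WT and 5.8% ± 2.55 (SD, n = 3) in Prdm16. The difference was -4.71 percentage points. Without WT replicate 1 the difference was -2.27.

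All 6 libraries had less H3K9me2 beside the regions than over the autosomes, where coverage was 35.9%, 22.8% and 31.5% in WT and 20.3%, 32.5% and 27.5% in Prdm16. The rule requires no H3K9me2 inside the regions, and domains are long, so low coverage next to them is in part fixed by the choice. Divided by its autosome coverage, each library's flank coverage was 0.429, 0.296 and 0.297 in WT and 0.417, 0.17 and 0.123 in Prdm16. The mean ratio was 0.341 ± 0.0761 (SD, n = 3) in WT and 0.237 ± 0.158 (SD, n = 3) in Prdm16, a difference of -0.104. WT replicate 1, which had the most H3K9me2, touched 88 of the regions, while Prdm16 replicate 3 touched 11. The median distance from a region to the nearest domain was 233, 804 and 570 kb in WT replicates 1, 2 and 3 and 721, 682 and 985 kb in the Prdm16 replicates.

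**Figure D4:**
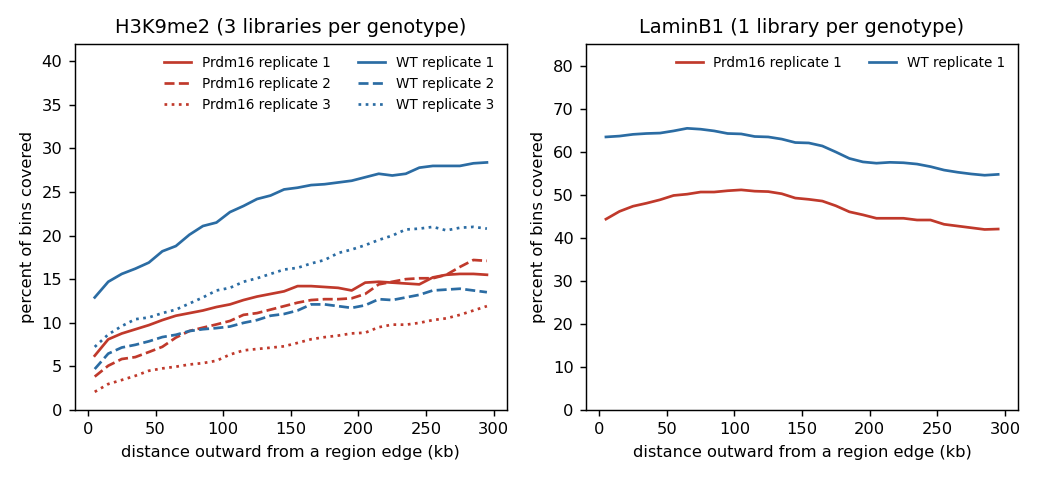
Percent of 1 kb bins covered (vertical axes, from 0) by H3K9me2 in 6 libraries (left) and by LaminB1 in 2 libraries (right), by distance outward from the region edges in kb. Every library has more H3K9me2 at 290 to 300 kb than at the edge, and WT replicate 1 is highest throughout; WT LaminB1 lies above Prdm16 LaminB1 at every distance.

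RNA was not used to choose the regions. Libraries held 5839587 to 10657791 counts. Markers of FAPs were present in all 5 libraries: Pdgfra, the receptor that defines them, stood at 471 to 950 counts in each 1000000 of the scaled library (CPM) in WT, and at 761 and 587 in Prdm16. The macrophage marker Adgre1 had no count, and the leukocyte gene Ptprc had 1 to 3 per library. Muscle-lineage genes had RNA: Des stood at 27.9, 32.0 and 103 CPM in WT and at 80.3 and 93.1 in Prdm16. Myod1 stood at 5.1, 8.6 and 29.4 CPM in WT and at 12.6 and 16.0 in Prdm16. The FAP marker Dcn was at 602, 487 and 129 CPM in WT and at 714 and 731 in Prdm16. WT replicate 3 was thus the highest for Des and Myod1 and the lowest for Dcn. Prdm16 had 171, 94 and 59 counts in WT and 91 and 86 in Prdm16, a log2 difference of 0.13 (SE 0.47), so these counts did not separate the labels. Counting covers the whole gene and need not show a deletion of part of it. The authors' own p-values were matched within 1% for 38 of 6237 genes when libraries were grouped by their labels, and for all 6237 when WT replicate 3 and Prdm16 replicate 1, as labelled, changed places. Every genotype difference in RNA below is by the labels and carries that doubt. In bulk RNA, fewer cells of a type and less RNA per cell cannot be told apart.

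Most genes of the regions had little or no RNA. Of the 955 region genes in the count table, 566 (59.3%) had no count in any library and another 307 had 1 to 9 counts over all 5. Among protein-coding genes of the regions, 48.8% had no count, against 17.4% of all autosomal protein-coding genes and 65.4% of those in shared H3K9me2-free LaminB1. The share that passed edgeR's expression filter was 7.8% in the regions, 59.5% over the autosomes and 1.92% in shared H3K9me2-free LaminB1. The families weigh on this share. Outside the olfactory, vomeronasal and taste receptors, 20.3% of protein-coding region genes passed (36 genes), against 4.28% in shared H3K9me2-free LaminB1, 9.42% in WT-only LaminB1 with H3K9me2 and 73.5% outside both marks. Clustered genes are not independent, and no test was made.

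Olfactory receptors gave scattered counts. Of the 294 with a row of counts, 157 had none, and 131 of the remaining 137 had fewer than 10 in all. Receptors with a count numbered 15, 68 and 59 across WT and 27 and 35 across Prdm16, and their summed counts were 119, 176 and 182 against 124 and 98. Scaled to the library, the sums were 11.4, 25.2 and 17.0 CPM for WT, and 14.5 and 17.4 for Prdm16. WT replicate 1 had the largest library total (10657791 counts) and the fewest receptors with a count. None of these measures set the genotypes apart. Olfr1318 held 306 of the olfactory receptor counts, at 7.7, 8.31 and 6.34 CPM for WT, and 7.82 and 5.86 for Prdm16. Olfr1033 was at 1.44, 2.15 and 0.653 CPM for WT, and 1.17 and 0.71 for Prdm16. Near-identical receptor copies can share reads, so values of single receptors are uncertain. All 5 beta globin genes of the regions were at 0 counts in every library, and of the 12 keratin-associated genes 10 were.

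The region genes with the highest CPM included several of general cell function. Exon lengths were not used here and long transcripts give more counts, so this order is of CPM and not of transcript level, and values are compared only between libraries. Smim10l1, a small membrane protein gene, had 176, 90.4 and 115 CPM across WT replicates 1 to 3, against 94.2 and 82.4 across the Prdm16 replicates. WT replicate 1 was the highest and the genotypes overlapped. Chordc1, an Hsp90 co-chaperone, had 60.2, 80.3 and 106 CPM for the WT replicates in order, and Prdm16 stood at 79.1 and 91.3. Both Prdm16 values lay inside the WT range. The neighbouring Naalad2, a peptidase gene, had 54.3, 96.0 and 47.4 CPM across WT replicates 1 to 3, against 67.2 and 60.9 across the Prdm16 replicates.

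Trnt1, which completes the tails of transfer RNAs, had 76.7, 84.7 and 81.0 CPM for the WT replicates in order, and Prdm16 stood at 79.7 and 76.0. Crbn, the substrate receptor of a ubiquitin ligase, had 48.1, 58.5 and 47.1 CPM across WT replicates 1 to 3, against 58.2 and 51.0 across the Prdm16 replicates. The annotated spans of Trnt1 and Crbn overlap, so reads between them may be shared. Neither gene's genotypes separated. Snrpn, an imprinted gene of the spliceosome, had 8.47, 14.9 and 16.0 CPM for the WT replicates in order. Prdm16 stood at 12.3 and 12.6. A share of 0.886 of the Snrpn span lay in its region, which began at chr7:60036001, inside that span. Counts cover the whole gene, so RNA from the part outside the region is included. Lrif1, a protein of heterochromatin, lay in a whole WT domain and had 12.3, 15.8 and 18.3 CPM across WT replicates 1 to 3, against 15.9 and 14.6 across the Prdm16 replicates.

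No region gene passed the test for a genotype difference. Of 50 region genes tested, 0 had an adjusted p under 0.05 (edgeR quasi-likelihood test with Benjamini-Hochberg adjustment over 15240 genes), where the background was 0.0% of all genes tested, and DESeq2 also called 0 of them. At an unadjusted p under 0.05 there were 2 genes, 0 of them higher in Prdm16 (background 1.11%) and 2 lower (background 1.37%), against 2.48% of all genes in either direction. Both Prdm16 libraries lay above all WT libraries for 3 of the 50 (6.0%; background 8.83%) and below all of them for 6 (12%; background 8.96%). The genes are few and 11 are beta protocadherins of one cluster, and these shares are near the background.

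The sign of the fitted difference leaned one way. Of the 50 genes 38 had a negative log2 fold change (Prdm16 over WT) and 12 a positive one (24.0%, against 50.1% of all genes tested), with a median of -0.17 against 0.001. In shared H3K9me2-free LaminB1 36.1% of 36 tested genes were positive, and in WT-only LaminB1 with H3K9me2 57.1% of 77. The median of the region genes was -0.05 without WT replicate 2 and -0.31 without Prdm16 replicate 1, so its size moved with single libraries. The positive share was 19.6% to 40.7% with 1 library left out (40.7% without Prdm16 replicate 2) and 35.4% for genes with any overlap. It was 18 of 50 genes with the replicate block and 20 of 50 with the doubtful labels exchanged. No test of the list was made, and none of its genes passed alone.

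Beta protocadherins were the largest family among the tested genes. Of the 15 in the regions 11 were tested, of which 10 had a negative log2 fold change, and their summed level was 80.8, 95.3 and 70.2 CPM for WT, and 70.2 and 63.9 for Prdm16. The genotypes met at 70.2, the value of WT replicate 3 and Prdm16 replicate 1. Pcdhb16 had 16.7, 18.5 and 15.3 CPM for the WT replicates in order, and Prdm16 stood at 12 and 7.64, with both Prdm16 libraries below all WT libraries. Its log2 fold change was -0.77 (SE 0.32, unadjusted p = 0.0432, edgeR adjusted p = 0.9996). Pcdhb20 had 5.48, 8.31 and 4.85 CPM across WT replicates 1 to 3, against 3.03 and 3.55 across the Prdm16 replicates, a log2 fold change of -0.91 (SE 0.45, edgeR adjusted p = 0.9996). Pcdhb13 had the other sign, at 0.74 (SE 0.64), and was at 0.32 without Prdm16 replicate 2. Pcdhb16 was at -0.47 without that library. Pcdhb17 was level, at 13.9, 15.2 and 16.2 CPM for WT, and 13.5 and 14.4 for Prdm16. The paralogs are similar enough that the authors' counting could divide reads among them. The 11 Pcdha genes in the count table had 3 to 7 genes with a count per library and none was tested.

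Of the 7 tested zinc finger genes of the regions 2 had a positive and 5 a negative log2 fold change. Zfp976 had 2.6, 3.58 and 2.43 CPM for the WT replicates in order, and Prdm16 stood at 5.84 and 4.08, so both Prdm16 libraries were higher. Its log2 fold change was 0.8 (SE 0.44, edgeR adjusted p = 0.9996). With the labels of WT replicate 3 and Prdm16 replicate 1 exchanged it was -0.32. Zfp442 (0.45, SE 0.3) had the same direction, while Zfp970 (-0.86, SE 0.66) and Zfp808 (-0.34, SE 0.4) had the opposite. Without WT replicate 2 Zfp970 was at -0.26. Gm14403, a long noncoding RNA gene in the region that also holds Zfp970, had the smallest unadjusted p of the 50 (0.0137), at 5.96, 5.45 and 2.61 CPM for WT, and 1.52 and 1.07 for Prdm16. Its log2 fold change was -1.82 (SE 0.58), and it is named after its values were seen.

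Cd53, a leukocyte tetraspanin, had 17.9, 7.31 and 16.0 CPM across WT replicates 1 to 3, against 15.9 and 27.7 across the Prdm16 replicates. Prdm16 replicate 2 was the highest and the genotypes overlapped, with a log2 fold change of 0.65 (SE 0.43, edgeR adjusted p = 0.9996). It was 0.21 without that library and 0.36 without WT replicate 2. The 8 macrophage markers, of which 2 were tested, summed to 5.77 to 6.62 CPM for WT, and 5.72 and 7.28 for Prdm16. Their part in the Cd53 level was not tested. Mrpl3, a mitochondrial ribosomal protein, had 48.0, 23.7 and 42.3 CPM for the WT replicates in order, and Prdm16 stood at 27.3 and 23.8, at -0.57 (SE 0.32). Mtg1, a GTPase of mitochondrial ribosome assembly, was at -0.16 (SE 0.23).

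The named genes of the whole WT domains other than Lrif1 had few or no counts. Pax7 had 0, 0 and 11 counts in WT and 1 and 1 in Prdm16, so WT replicate 3 held nearly all of them, and it was not tested. The 13 genes of the myoblast list summed to 663, 887 and 1100 CPM for WT, and 1080 and 1020 for Prdm16, with WT replicate 3 the highest of its group. Their part in the Pax7 counts was not tested. Gata5 and Mir1a-1 had no count, and libraries of polyadenylated RNA hold few mature microRNAs.

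**Figure D5:**
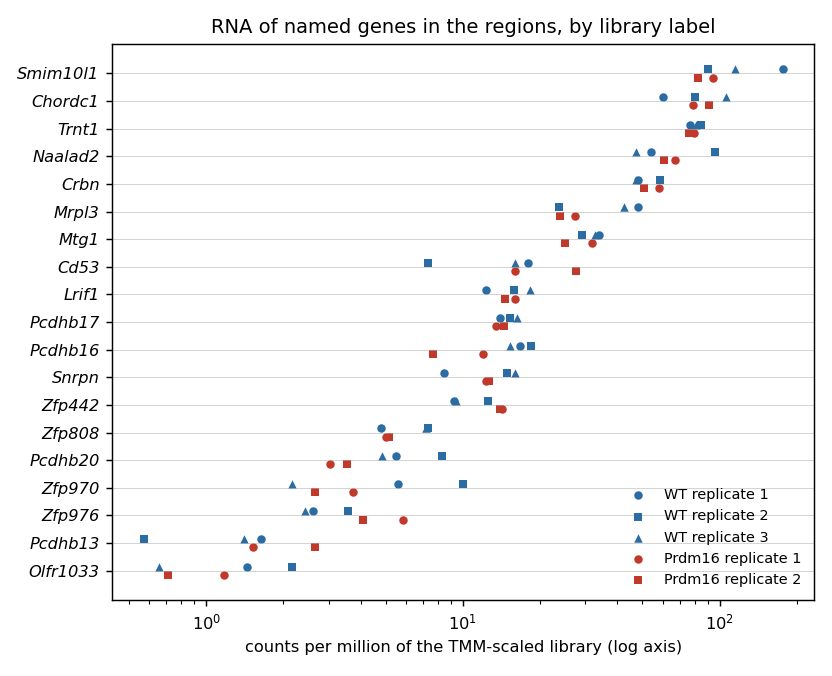
CPM (log axis) of the named region genes in each of the 5 RNA libraries, WT in blue and Prdm16 in red, by the labels. Genotypes overlap for most genes; Pcdhb16 and Pcdhb20 have both Prdm16 libraries below all WT libraries, and Zfp976 and Zfp442 both above.

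The RNA of genes that build the lamina or write H3K9 methylation gave no call by the labels. The same held for all 15240 genes tested, so this does not set these genes apart. Of 20 genes of the nuclear lamina and inner nuclear membrane all 20 were tested and 0 called, with 8 positive and 12 negative log2 fold changes and a median of -0.15. Of 28 genes of H3K9 methylation and heterochromatin 27 were tested and 0 called, 17 positive and 10 negative, with a median of 0.07. Lmnb1, which encodes LaminB1, stood at 36.7, 10.8 and 16.3 CPM for WT, and 9.81 and 16.3 for Prdm16. WT replicate 1 was well above the other 4 libraries, and the log2 fold change was -0.72 (SE 0.54, edgeR adjusted p = 0.9996). The H3K9 dimethyltransferase genes Ehmt1 (-0.24, SE 0.19) and Ehmt2 (0.25, SE 0.27) did not pass the test either, nor did Lbr (0.24, SE 0.23), the lamin B receptor.

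In the authors' deposited table, 19 region genes had an adjusted p. Of these, 1 was called higher in Prdm16 (background 1.97%) and none lower (background 5.58%). The higher one was Vmn2r79, a vomeronasal receptor, with a log2 fold change of 2.53 and an adjusted p of 0.000148 in the authors' deposited table. Its counts were 19, 5 and 147 in the libraries labelled WT replicates 1 to 3 and 18 and 44 in those labelled Prdm16. The library labelled WT replicate 3 held most of them, and by the labels the log2 fold change was -0.18 (SE 1.27, edgeR adjusted p = 0.9996). With the labels of that library and Prdm16 replicate 1 exchanged, edgeR called this 1 of the 50 region genes tested. Over all 15240 genes tested it then called 182, against 0 by the labels.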

How the data were processed

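LaminB1 and H3K9me2 domains and RNA were analysed in 2, 6 and 5 libraries, grouped by their labels. Builds named in the submitters' processing notes are mm10, GRCm38 and dm6, and tools are featureCounts, STAR 2.7, Bowtie 1.2.2 and DESeq2 1.20. The sources used here do not state their roles or the domain caller. The deposited domain lists hold coordinates and a score from the authors, per library. Boundaries are multiples of 3 kb (H3K9me2) or 4 kb (LaminB1). The deposited count table holds whole-number counts for 55341 genes. The deposited comparison table of the authors holds a log2 fold change, whose adjusted p-value is given for 6237 genes.

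The regions, gene lists and rules were chosen with earlier results of these data known. Coverage was computed in Python 3.11.15 (numpy 2.4.6, pandas 2.3.3) over 2460.5 Mb. RefSeq GRCm38.p6 genes were placed by a body share of at least 0.5, and 955 of 1067 region genes matched the count table (21 by synonym). R 4.3.3 with edgeR 4.0.16 was used for counts: default expression filter (15240 genes), TMM scaling, robust quasi-likelihood, two-sided, Benjamini-Hochberg, threshold 0.05. CPM (counts in each 1000000) refer to the TMM-scaled library. Library totals were 5839587 to 10657791 counts. Scripts were tested on simulated data. Named genes are the 12 of smallest unadjusted p, the 12 of highest mean CPM (no exon lengths were at hand), genes of the named regions and listed genes. Symbols of Gm and digits, Rik symbols and pseudogenes were left unnamed, except Gm14403, singled out after its values were seen. Named regions are the 8 longest, the 5 longest touching no shared LaminB1 and the 5 with most genes. Alternatives covered the domain score, each library left out, DESeq2 1.42.0, other scaling, no filter, exchanged labels and flank width. A gene of the regions and the results that need it are not reported here. The exact permutation test planned for H3K9me2 near the regions is not given, since the lists it uses chose the regions.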

Additional observations from a re-analysis of the deposited data

How the results depend on the processing

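Keeping only the WT LaminB1 domains of highest score, down to the length of Prdm16 LaminB1 (143 domains, lowest score 112), left 166 regions of 32.3 Mb with 324 protein-coding genes and 228 olfactory receptors. This left out all 24 whole WT domains by construction, since their scores end at 23.9. Longer domains tended to score higher, so the setting also favoured long domains. Leaving out 1 H3K9me2 library at a time gave 397 to 498 regions and 53.6 to 70.1 Mb, with the most regions without WT replicate 1. These held 508 to 581 protein-coding genes and 295 to 312 olfactory receptors. Leaving a library out can only add bins under the rule, so length and gene numbers could not fall. The flank difference in H3K9me2 stayed negative, at -6.58 to -2.27 with 1 library left out.

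The number of region genes called was 0 with any 1 WT RNA library left out. It was 1 of 50 with the labels exchanged, where 182 of all 15240 genes tested were called. Region genes at an unadjusted p under 0.05 (edgeR) were 2 of 50 tested in the main setting. They were 1 of 46, 3 of 49 and 3 of 47 without WT replicates 1, 2 and 3. With no filter on low counts they were 6 of 389. With gene starts in place of bodies they were 1 of 25, and with any overlap 4 of 79. Those 2 settings use the main fit, where the share over all genes was 2.48%. Settings that leave 1 Prdm16 library are not counted here. The setting with gene starts tested 25 genes in place of 50. It could not count genes without a promoter in the reference used, among them Pcdhb16 and the other beta protocadherins. Its lower number is therefore not a result about where genes start. The median log2 fold change of the region genes ran from -0.31 to -0.05 with 1 library left out and was -0.55 with no filter. The share of protein-coding genes passing the filter was 7.6% to 8.2% with 1 library left out and 20.3% outside receptor families, an alternative chosen after seeing the data. With labels exchanged the log2 fold change was 0.01 for Mrpl3, -0.32 for Zfp976, -0.04 for Zfp442 and 0.13 for Zfp808, and for Mtg1 it ran from -0.37 without Prdm16 replicate 1 to 0.01 without Prdm16 replicate 2. Apart from what the settings remove by construction, the cause of these changes was not tested.

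Deviations of same-numbered replicates from their group mean had a Pearson's r of 0.215 and -0.227 for RNA. For H3K9me2 it was -0.159, -0.385 and 0.0979. With 2 Prdm16 RNA libraries their deviations mirror each other, so the 2 RNA values are not separate checks. With so few libraries these values cannot settle whether samples were paired. The labels do not say that replicate numbers pair samples, so the numbers were not taken to do so. With the replicate block, 0 region genes were called, 2 had an unadjusted p under 0.05 (edgeR), and the median was -0.19. The flank difference is -4.71 with or without pairing, since pairing cannot change a difference of means.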
